A study of Mus musculus with 20 samples.

Results

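The 44 genes described here encode contractile, calcium-handling and energy-metabolism proteins of skeletal muscle fibres, and their expression was followed across mouse tumors injected with adenoviral vectors. They were taken from a written list of muscle fibre genes, and each was read from 1 probe set, the one with a single gene symbol and the highest mean over 20 arrays. All 44 were measured, of 19938 genes with such a probe set. The tumors were implants of LLC-1, the Lewis lung carcinoma cell line, in C57Bl/6 hosts. There were 4 groups of 5 arrays: tumors given an adenovector for p19Arf together with IFNbeta (p19Arf+IFNbeta), for IFNbeta, for p19Arf, or for enhanced green fluorescent protein (eGFP), the control. All 4 groups shared the implant, the host strain and the schedule, which per the labels was 5 injections into the tumor, 48 h apart, each of 25 µl of saline with virus at a load whose log10 is 8, in a unit the labels leave out. IFNbeta, a type I interferon, is secreted by infected cells, and p19Arf is a mouse tumor suppressor that stabilises p53 by binding Mdm2. The age and sex of the hosts, the implantation site, the promoter that drives each insert and any pooling of RNA are not given in the sources that were used. Nothing states that the arrays of a group came from separate mice, so the p-values measure only the spread between these samples, which may be technical.

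A skeletal muscle fibre shortens when myosin heads of the thick filament pull on actin of the thin filament, and the filaments are anchored at the Z-disc and held in register by titin and nebulin. An action potential opens calcium release channels of the sarcoplasmic reticulum, calcium binds troponin on the thin filament, and a calcium pump ends the contraction. Fast and slow fibres build this machine from different isoforms of myosin, troponin and the calcium-handling proteins, and fast fibres draw more on glycogen and creatine phosphate. Most of these genes are little used outside striated muscle. In bulk samples such as these, fewer fibres and less RNA per fibre cannot be told apart.

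Values were log2 expression values as deposited, with array medians of 7.49 to 7.61 and values of 2.33 to 14.7. Correlations between arrays of a group over all genes ran from 0.967 to 0.996. The level of 1 gene cannot be set against that of another on such arrays, so only differences within a gene are compared. Of the 44 muscle genes, 14 had a mean level above the median of all genes. The others lay below it, and since no detection call was used here, how far their signal stood above background is not known. Genes of the tumor line and of dividing cells (7 of 8 measured) had mean levels of 9.12 to 9.38 on the 20 arrays. Stromal and other dividing cells also express some of these, and the share of tumor cells was not tested.

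Muscle transcripts had higher mean levels in the tumors given any of the 3 test vectors than in eGFP tumors, but no single gene passed the test. In p19Arf+IFNbeta tumors 43 of 44 muscle genes had a higher mean than in eGFP tumors, where 55% of all genes did, and in IFNbeta tumors 39 did, against 44.2% of all genes. In p19Arf tumors 43 did, against 54.4% of all genes. The median difference of the 44 from eGFP was 0.41 log2 units in p19Arf+IFNbeta, 0.40 in IFNbeta and 0.29 in p19Arf, where the median over all genes was 0.02, -0.02 and 0.02. All 3 comparisons share the same 5 eGFP arrays. Without the fourth IFNbeta array the IFNbeta median was 0.23. With arrays weighted by how closely they followed the model, the p19Arf median was 0.10 and 32 of 44 had a higher mean than in eGFP. The share of all genes with a higher mean under these weights is not given, so that count cannot be set against genes at large.

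With limma and Benjamini-Hochberg adjustment over 19938 genes, 0 of 44 muscle genes had an adjusted p under 0.05 in p19Arf+IFNbeta, IFNbeta or p19Arf tumors against eGFP, and 0% of all genes did in each. The smallest adjusted p among the 44 was 0.234 in p19Arf+IFNbeta, 0.9998 in IFNbeta and 0.661 in p19Arf. At an unadjusted p under 0.05, 21 of 44 were higher in p19Arf+IFNbeta tumors, against 6.18% of all genes. In IFNbeta tumors 17 were, against 1.34% of all genes, and in p19Arf tumors 3 were (Myom2, Sln and Tnnc2), against 2.84%. None of the 44 was lower at that threshold, where 11.4% of all genes were in p19Arf+IFNbeta, 1.45% in IFNbeta and 4.4% in p19Arf. The 44 genes were correlated over the arrays, with a median Pearson r of 0.639 over all 946 pairs. These counts and the counts of higher means are therefore not of separate observations. For 0 of 44 genes did all 5 arrays of a vector group lie above all 5 eGFP arrays, where 0.782%, 0.552% and 0.251% of all genes did so in p19Arf+IFNbeta, IFNbeta and p19Arf. The median SD over 20 arrays was 0.40 for the 44 muscle genes, against 0.20 for all genes.

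**Figure D1:**
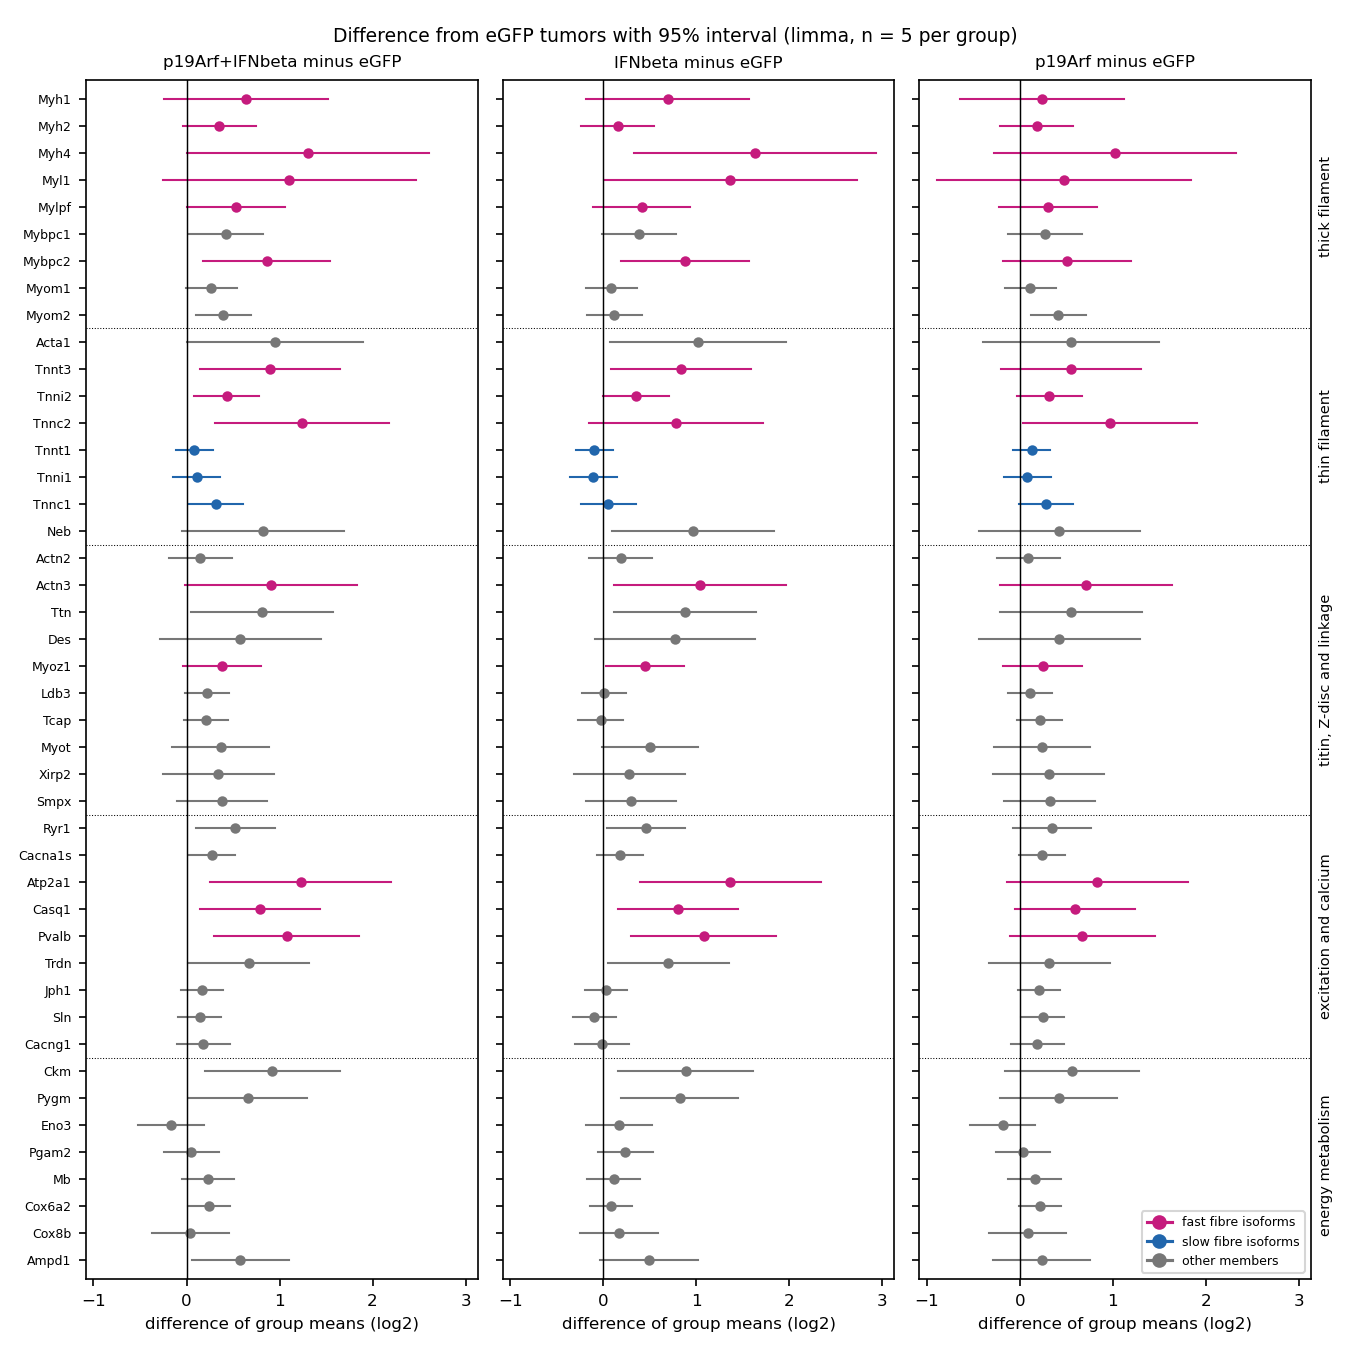
Difference of each group mean from the eGFP mean in log2 units (horizontal axis), for the 44 muscle genes in order of role (vertical axis); points are differences, bars 95% confidence intervals from limma, n = 5 arrays per group. Fast fibre isoforms reach 1.31, 1.64 and 1.02 at Myh4, while the 3 slow fibre isoforms stay between -0.11 and 0.32.

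Among the thick filament genes, 9 in all, the fast myosin heavy chain Myh4 had the largest difference from eGFP of all 44 genes in each vector group. Myh4, the heavy chain of the fastest limb fibres, was at 7.21, 9.87, 6.41, 8.35 and 9.36 in p19Arf+IFNbeta, 6.61, 9.23, 8.61, 10.08 and 8.32 in IFNbeta and 8.81, 9.19, 6.78, 6.66 and 8.32 in p19Arf tumors, against 6.70, 6.58, 6.96, 6.58 and 7.83 in eGFP tumors. The arrays of each vector group spanned most of the gene's range, and the lowest array of all was the third of p19Arf+IFNbeta, while 4 of 5 eGFP arrays lay below 7. Myh4 averaged 8.24 ± 1.44 in p19Arf+IFNbeta, 8.57 ± 1.29 in IFNbeta and 7.95 ± 1.17 in p19Arf, against 6.93 ± 0.53 in eGFP (SD, n = 5 each). The difference from eGFP was 1.31 (SE 0.63) in p19Arf+IFNbeta, 1.64 (SE 0.63) in IFNbeta and 1.02 (SE 0.63) in p19Arf, with limma adjusted p-values of 0.282, 0.9998 and 0.663. The IFNbeta value was the largest positive difference of all 19938 genes in that comparison, and 10 of 15 vector arrays were above the highest eGFP array. That count has no share over all genes beside it, here or for the genes below, so whether it is unusual is not known.

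The essential light chain Myl1, which wraps the myosin neck in fast fibres, had the widest range of all 44, 5.04 log2 units or 32.8-fold over 20 arrays. It was at 8.29, 9.56, 6.50, 7.90 and 8.78 in p19Arf+IFNbeta, 6.65, 8.66, 7.89, 10.79 and 8.34 in IFNbeta and 9.11, 8.43, 6.00, 6.85 and 7.48 in p19Arf tumors, against 5.75, 7.91, 6.64, 7.46 and 7.73 in eGFP tumors. The top was the fourth IFNbeta array and the bottom the first eGFP array, and each vector group had arrays within the eGFP range. Its differences from eGFP were 1.10, 1.37 and 0.48 in p19Arf+IFNbeta, IFNbeta and p19Arf (limma adjusted p = 0.379, 0.9998 and 0.802). The IFNbeta value was 0.79 without the fourth IFNbeta array. The p19Arf value of Myl1 was 0.091 without the first p19Arf array, 0.14 without the first eGFP array, 0.26 without the second p19Arf array and 0.87 without the third, and it turned to -0.27 with array weights. The regulatory light chain Mylpf of fast fibres ran from 6.93 to 8.01 in p19Arf+IFNbeta, 6.58 to 7.81 in IFNbeta and 6.50 to 8.07 in p19Arf, against 6.57 to 7.10 in eGFP. The groups overlapped, with differences of 0.53, 0.41 and 0.31. The p19Arf value of Mylpf was 0.077 without the second p19Arf array, 0.47 without the third and -0.050 with array weights.

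The other fast heavy chains had smaller differences. Myh1, the chain of intermediate fast fibres, averaged 7.47 ± 0.63 in p19Arf+IFNbeta, 7.52 ± 1.02 in IFNbeta and 7.07 ± 0.87 in p19Arf, against 6.83 ± 0.49 in eGFP (SD, n = 5 each). Myh2, the chain of the most oxidative fast fibres, averaged 6.96 ± 0.23 in p19Arf+IFNbeta, 6.76 ± 0.48 in IFNbeta and 6.78 ± 0.33 in p19Arf, against 6.60 ± 0.24 in eGFP (SD, n = 5 each), with the fourth IFNbeta array at 7.58 above all others. Mybpc2 and Mybpc1, the fast and slow forms of a protein that binds the thick filament and tunes its movement, differed from eGFP in p19Arf+IFNbeta, IFNbeta and p19Arf by 0.86, 0.88 and 0.51 for Mybpc2. The same differences were 0.43, 0.38 and 0.27 for Mybpc1. The M-band proteins Myom1 and Myom2, which tie thick filaments together at their centre, varied less. Myom2 averaged 6.91 ± 0.23 in p19Arf+IFNbeta, 6.64 ± 0.33 in IFNbeta and 6.93 ± 0.22 in p19Arf, against 6.52 ± 0.15 in eGFP (SD, n = 5 each), and its p of 0.279 was the smallest of the 44 in limma's adjusted F test for any difference among the 4 groups. In that test 0 of 44 muscle genes passed, with 0% of all genes, and 5 of 44 (Myom2, Sln, Pvalb, Atp2a1 and Mybpc2) had an unadjusted p under 0.05, against 16.3% of all genes. Heavy chain genes are close copies of each other, and whether their probe sets pick up each other's transcripts was not tested.

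The stretches of 250 bases before the start of Myh4 and of Myh1 are shown because these neighbouring genes for fast heavy chains were high on partly different arrays. They are RefSeq sequence of GRCm38.p6 on the plus strand, at chr11:67237562-67237811 for Myh4 and chr11:67199852-67200101 for Myh1. Capitals mark matches, on either strand, to 4 motifs known from muscle promoters: the E-box CANNTG bound by myogenic factors, the MCAT box CATTCC bound by Tead factors, the MEF2 box and the CArG box bound by Srf.
Myh4: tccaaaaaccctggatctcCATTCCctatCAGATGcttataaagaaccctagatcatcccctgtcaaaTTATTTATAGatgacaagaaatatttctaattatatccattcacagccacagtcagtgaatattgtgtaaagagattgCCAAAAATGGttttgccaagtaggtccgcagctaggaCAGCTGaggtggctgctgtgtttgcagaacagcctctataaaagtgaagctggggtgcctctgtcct
Myh1: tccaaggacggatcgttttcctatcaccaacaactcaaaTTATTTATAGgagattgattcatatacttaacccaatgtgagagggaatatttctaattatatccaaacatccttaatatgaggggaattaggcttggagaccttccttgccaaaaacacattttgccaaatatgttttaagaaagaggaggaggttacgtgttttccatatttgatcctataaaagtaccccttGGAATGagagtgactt
The Myh4 stretch held 2 E-boxes, 1 MCAT box, 1 MEF2 box and 1 CArG box, none overlapping another. The Myh1 stretch held 1 MEF2 box and 1 MCAT box on the minus strand, and no E-box. Over windows of 300 bases (250 before to 50 after the start), 35 windows of 30 of the 44 genes could be matched. An E-box was in 80% of them, against 72.3% of all 32851 promoter windows, and an MCAT box in 28.6%, against 14.7%. A MEF2 box was in 17.1%, against 3.19% of all windows, and a CArG box in 14.3%, against 1.63%. Some genes had overlapping windows, among them Ldb3 with a CArG box, so the same site may be counted more than once. A match is a run of letters and not a shown binding site.

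Thin filament genes, 8 in all, included some of the most variable transcripts. Acta1, the actin of skeletal muscle thin filaments, was at 9.66, 10.73, 8.22, 9.60 and 10.04 in p19Arf+IFNbeta, 8.24, 9.85, 10.24, 10.85 and 9.38 in IFNbeta and 9.94, 10.24, 8.20, 8.67 and 9.20 in p19Arf tumors, against 8.07, 9.11, 8.43, 8.49 and 9.39 in eGFP tumors. In each vector group 1 or more arrays lay in the eGFP range, and 9 of 15 vector arrays were above the highest eGFP array. Its means were 9.65 ± 0.91 in p19Arf+IFNbeta, 9.71 ± 0.98 in IFNbeta and 9.25 ± 0.85 in p19Arf, against 8.70 ± 0.54 in eGFP (SD, n = 5 each), giving differences of 0.95 (SE 0.46) in p19Arf+IFNbeta, 1.02 (SE 0.46) in IFNbeta and 0.55 (SE 0.46) in p19Arf (limma adjusted p = 0.280, 0.9998 and 0.701). The p19Arf value of Acta1 was 0.30 without the second p19Arf array and 0.013 with array weights. Nebulin (Neb), the ruler along the thin filament, had differences of 0.83, 0.97 and 0.43. It ranged over 2.81 log2 units, with its highest value again on the fourth IFNbeta array.

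**Figure D2:**
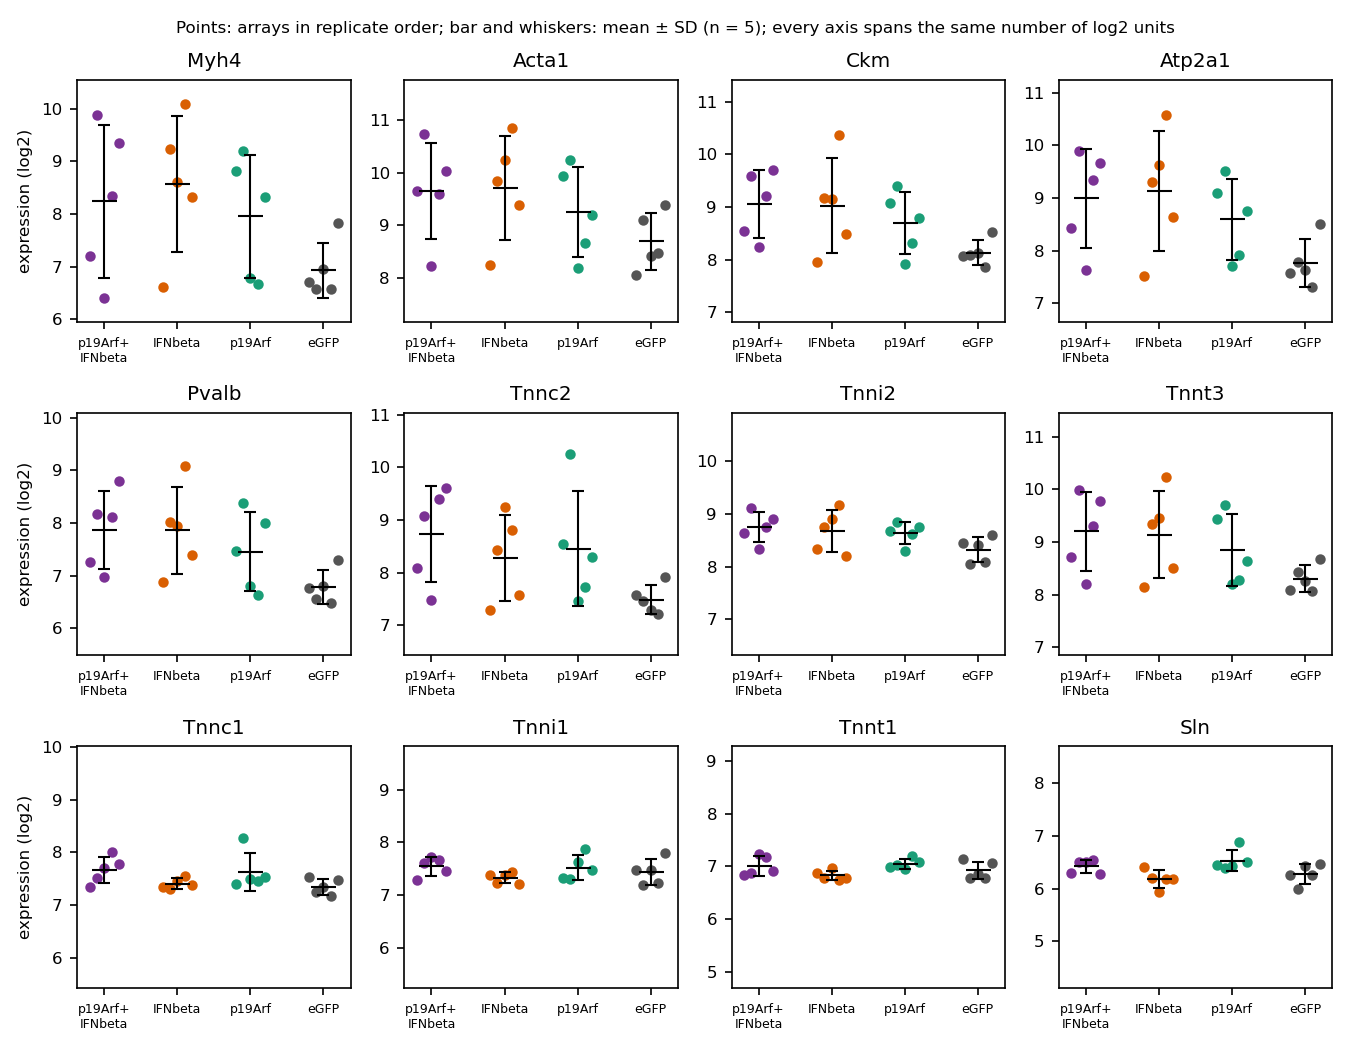
Log2 expression (vertical axis, the same span in every panel) of 12 muscle genes on each array; points are arrays in replicate order, bars and whiskers the mean and SD of 5 arrays in p19Arf+IFNbeta, IFNbeta, p19Arf and eGFP tumors from left to right. Myh4 and Ckm scatter widely in the 3 vector groups and less in eGFP. The 3 slow troponins and Sln stay within a range of 1.11 or less, and the fast Tnni2 spans 1.12.

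Each troponin subunit comes in a fast and a slow form, which allows a comparison within 1 complex. Of the calcium-binding subunits, the fast Tnnc2 was at 8.09, 9.08, 7.48, 9.40 and 9.61 in p19Arf+IFNbeta, 7.30, 8.44, 9.25, 8.81 and 7.58 in IFNbeta and 8.55, 10.24, 7.46, 7.72 and 8.30 in p19Arf tumors, against 7.57, 7.45, 7.30, 7.22 and 7.91 in eGFP tumors. The second p19Arf array stood highest, and 10 of 15 vector arrays were above the highest eGFP array. The slow and cardiac Tnnc1 was at 7.35, 7.51, 7.71, 8.01 and 7.77 in p19Arf+IFNbeta, 7.35, 7.29, 7.46, 7.56 and 7.37 in IFNbeta and 7.39, 8.27, 7.50, 7.45 and 7.54 in p19Arf tumors, against 7.53, 7.24, 7.34, 7.17 and 7.47 in eGFP tumors. It was also highest on the second p19Arf array, and the vector groups overlapped eGFP.

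The fast inhibitory subunit Tnni2 was at 8.64, 9.12, 8.34, 8.76 and 8.91 in p19Arf+IFNbeta, 8.33, 8.76, 8.90, 9.18 and 8.21 in IFNbeta and 8.68, 8.84, 8.30, 8.63 and 8.76 in p19Arf tumors, against 8.46, 8.06, 8.41, 8.09 and 8.60 in eGFP tumors. Its range of 1.12 was the smallest of the fast troponins. The slow form Tnni1 was at 7.28, 7.60, 7.73, 7.67 and 7.45 in p19Arf+IFNbeta, 7.37, 7.23, 7.38, 7.44 and 7.21 in IFNbeta and 7.32, 7.30, 7.62, 7.87 and 7.48 in p19Arf tumors, against 7.48, 7.19, 7.47, 7.23 and 7.81 in eGFP tumors. No group stood apart for Tnni1, and its mean in IFNbeta was below that in eGFP.

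The fast tropomyosin-binding subunit Tnnt3 was at 8.72, 9.99, 8.20, 9.31 and 9.78 in p19Arf+IFNbeta, 8.15, 9.35, 9.46, 10.23 and 8.51 in IFNbeta and 9.43, 9.70, 8.20, 8.28 and 8.64 in p19Arf tumors, against 8.09, 8.42, 8.25, 8.07 and 8.68 in eGFP tumors. Its lowest values in each vector group lay among the eGFP values. The slow form Tnnt1, with the narrowest range of the 44 (0.50 log2 units), was at 6.84, 6.87, 7.23, 7.18 and 6.90 in p19Arf+IFNbeta, 6.87, 6.78, 6.96, 6.73 and 6.78 in IFNbeta and 6.98, 7.03, 6.95, 7.19 and 7.08 in p19Arf tumors, against 7.14, 6.77, 6.85, 6.78 and 7.05 in eGFP tumors. The limma differences from eGFP in p19Arf+IFNbeta, IFNbeta and p19Arf were 0.90, 0.84 and 0.55 for Tnnt3 and 0.09, -0.09 and 0.13 for Tnnt1. For the inhibitory subunits they were 0.43, 0.35 and 0.32 for Tnni2 and 0.11, -0.11 and 0.08 for Tnni1. For the calcium-binding subunits they were 1.24, 0.78 and 0.97 for Tnnc2 and 0.32, 0.06 and 0.28 for Tnnc1.

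The fast form minus the slow form of a subunit was then compared between groups array by array, which asks whether the forms differed from eGFP by unequal amounts. The Tnnc2 minus Tnnc1 difference was 0.92 higher in p19Arf+IFNbeta, 0.73 in IFNbeta and 0.69 in p19Arf than in eGFP. The Tnnt3 minus Tnnt1 difference was higher by 0.81, 0.93 and 0.42, and the Tnni2 minus Tnni1 difference by 0.32, 0.46 and 0.24. All 9 values were positive, but none passed an exact 2-sided permutation test adjusted over the 9, with adjusted p-values of 0.143 to 0.302 and a smallest unadjusted p of 0.0159 for Tnni2 minus Tnni1 in IFNbeta. The smallest p this design allows is 0.00794. Without the third p19Arf+IFNbeta array, the 3 differences of p19Arf+IFNbeta were 1.25 for troponin C, 1.12 for troponin T and 0.47 for troponin I, each with an adjusted exact permutation p of 0.0357. That array had the lowest value of its group for each pair, so leaving it out had to raise the differences. With other arrays left out they were as low as 0.73, 0.58 and 0.25. Without the second p19Arf array, the p19Arf differences were 0.40 for troponin C, 0.20 for troponin T and 0.13 for troponin I, and without the first that for troponin T was 0.26.

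The sequences before the starts of the troponin C pair are shown as the fast and slow forms of 1 subunit. They are RefSeq sequence of GRCm38.p6, at chr2:164779735-164779984 on the minus strand for Tnnc2 and chr14:31208062-31208311 on the plus strand for Tnnc1, with the same motifs in capitals.
Tnnc2: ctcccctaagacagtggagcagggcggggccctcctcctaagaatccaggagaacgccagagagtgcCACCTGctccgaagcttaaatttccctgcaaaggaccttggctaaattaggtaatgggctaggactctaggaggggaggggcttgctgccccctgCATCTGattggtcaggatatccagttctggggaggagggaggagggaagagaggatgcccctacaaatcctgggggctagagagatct
Tnnc1: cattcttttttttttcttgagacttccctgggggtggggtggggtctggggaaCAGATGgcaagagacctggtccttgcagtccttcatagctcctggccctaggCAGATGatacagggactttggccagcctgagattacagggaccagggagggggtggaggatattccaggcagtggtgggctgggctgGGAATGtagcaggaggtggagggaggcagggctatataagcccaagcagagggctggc
Each held 2 E-boxes, and Tnnc1 held 1 MCAT box on the minus strand as well. Neither held a MEF2 or CArG box in these letters.

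The titin, Z-disc and linkage genes, 10 in all, had median differences from eGFP of 0.37 in p19Arf+IFNbeta, 0.37 in IFNbeta and 0.28 in p19Arf. Titin (Ttn), the giant spring from Z-disc to M-band, averaged 8.24 ± 0.69 in p19Arf+IFNbeta, 8.31 ± 0.87 in IFNbeta and 7.97 ± 0.72 in p19Arf, against 7.43 ± 0.26 in eGFP (SD, n = 5 each). The fast alpha-actinin Actn3, which crosslinks actin at the Z-disc of fast fibres, averaged 8.47 ± 0.89 in p19Arf+IFNbeta, 8.59 ± 1.03 in IFNbeta and 8.26 ± 0.80 in p19Arf, against 7.56 ± 0.42 in eGFP (SD, n = 5 each). Actn2, the alpha-actinin of all fibre types and of heart, differed from eGFP by no more than 0.19 in any of the 3. Desmin (Des), the intermediate filament that links neighbouring Z-discs, was at 8.64, 9.73, 7.38, 8.08 and 8.41 in p19Arf+IFNbeta, 7.53, 8.41, 8.94, 9.85 and 8.50 in IFNbeta and 9.33, 9.01, 7.63, 7.81 and 7.72 in p19Arf tumors, against 7.25, 8.40, 7.53, 7.89 and 8.28 in eGFP tumors. The fourth IFNbeta array and the second p19Arf+IFNbeta array stood highest, and eGFP arrays 2 and 5 were above several vector arrays. The desmin differences were 0.58, 0.77 and 0.43 (limma adjusted p = 0.473, 0.9998 and 0.734). The Des value was 0.26 in p19Arf+IFNbeta without the second p19Arf+IFNbeta array and 0.47 in IFNbeta without the fourth IFNbeta array. In p19Arf it was 0.17 without the first p19Arf array, 0.25 without the second, 0.27 without the first eGFP array and 0.085 with array weights. With the spread (SD) of each array as a covariate the Des value was larger, 0.89 in p19Arf+IFNbeta and 0.71 in p19Arf.

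Among the smaller partners of the Z-disc, Myoz1, which binds calcineurin in fast fibres, had differences of 0.38, 0.45 and 0.24 in p19Arf+IFNbeta, IFNbeta and p19Arf. Myotilin (Myot), an actinin partner, had 0.37, 0.50 and 0.24. Xirp2 and Smpx, proteins of load-bearing attachment sites, had differences of 0.28 to 0.38. Ldb3, which joins actinin to signalling enzymes, and the titin cap Tcap had values close to eGFP in IFNbeta, with differences of 0.01 and -0.03. Their differences were 0.22 and 0.21 in p19Arf+IFNbeta.

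Of the 9 genes of excitation and calcium handling, the calcium pump Atp2a1 of fast fibres had the third largest difference of the 44 in IFNbeta, after Myh4 and Myl1. Atp2a1 was at 8.43, 9.89, 7.63, 9.33 and 9.67 in p19Arf+IFNbeta, 7.51, 9.30, 9.62, 10.57 and 8.64 in IFNbeta and 9.09, 9.51, 7.72, 7.91 and 8.75 in p19Arf tumors, against 7.58, 7.79, 7.63, 7.31 and 8.52 in eGFP tumors. Of the 15 vector arrays 10 were above the highest eGFP array, which was the fifth, and the first IFNbeta array was within the eGFP range. Atp2a1 averaged 8.99 ± 0.94 in p19Arf+IFNbeta, 9.13 ± 1.14 in IFNbeta and 8.60 ± 0.77 in p19Arf, against 7.76 ± 0.45 in eGFP (SD, n = 5 each). The difference was 1.23 (SE 0.47) in p19Arf+IFNbeta, 1.36 (SE 0.47) in IFNbeta and 0.83 (SE 0.47) in p19Arf, with limma adjusted p-values of 0.234, 0.9998 and 0.661. Parvalbumin (Pvalb), a soluble calcium buffer of fast fibres, was at 7.26, 8.17, 6.97, 8.12 and 8.79 in p19Arf+IFNbeta, 6.88, 8.02, 7.94, 9.09 and 7.40 in IFNbeta and 7.46, 8.38, 6.80, 6.63 and 8.01 in p19Arf tumors, against 6.77, 6.57, 6.81, 6.49 and 7.29 in eGFP tumors. The vector groups and eGFP overlapped in each case, and the differences were 1.08 (SE 0.38), 1.08 (SE 0.38) and 0.67 (SE 0.38).

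Casq1, the calcium store protein of the fast reticulum, had 12 of 15 vector arrays above the highest eGFP array, the most of any of the 44. No share over all genes is given for that count, and the vector groups share the same eGFP arrays. It averaged 7.10 ± 0.66 in p19Arf+IFNbeta, 7.12 ± 0.73 in IFNbeta and 6.90 ± 0.55 in p19Arf, against 6.31 ± 0.12 in eGFP (SD, n = 5 each). The release channel Ryr1, its anchor triadin (Trdn) and the voltage sensor Cacna1s had differences in p19Arf+IFNbeta of 0.53, 0.67 and 0.28. In IFNbeta they were 0.46, 0.70 and 0.18, and in p19Arf 0.35, 0.31 and 0.24. Cacng1, a further subunit of the voltage sensor, and junctophilin Jph1, which tethers the reticulum to the surface membrane, had small differences. Jph1 ran from 6.77 to 7.34 in p19Arf+IFNbeta, 6.70 to 7.16 in IFNbeta and 7.01 to 7.21 in p19Arf, against 6.70 to 7.14 in eGFP. These ranges overlapped throughout, with Jph1 differences of 0.16, 0.03 and 0.21. Its IFNbeta difference was -0.02 without the fourth IFNbeta array and -0.03 without the fourth eGFP array. Jph1 had 2 probe sets, and with their mean the differences were larger, 0.25 in p19Arf+IFNbeta, 0.12 in IFNbeta and 0.32 in p19Arf.

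Sarcolipin (Sln), a small membrane protein that inhibits the calcium pump, did not follow the pump. Sln ran from 6.28 to 6.54 in p19Arf+IFNbeta, 5.94 to 6.42 in IFNbeta and 6.39 to 6.88 in p19Arf, against 5.98 to 6.47 in eGFP. The differences from eGFP were 0.14 in p19Arf+IFNbeta, -0.10 in IFNbeta and 0.25 in p19Arf, so the IFNbeta mean was below eGFP. In p19Arf+IFNbeta tumors Sln was 0.24 higher than in IFNbeta tumors, and it was the 1 muscle gene of 44 with an unadjusted p under 0.05 there (limma adjusted p = 0.186), where 11.8% of all genes were higher and 14% lower at that threshold.

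Energy genes, 8 in all, had the smallest median difference of the 5 roles, 0.24 in p19Arf+IFNbeta, 0.21 in IFNbeta and 0.19 in p19Arf. Creatine kinase Ckm, which regenerates ATP from creatine phosphate, was at 8.55, 9.59, 8.24, 9.21 and 9.70 in p19Arf+IFNbeta, 7.96, 9.17, 9.15, 10.37 and 8.49 in IFNbeta and 9.07, 9.40, 7.92, 8.31 and 8.79 in p19Arf tumors, against 8.08, 8.09, 8.13, 7.86 and 8.53 in eGFP tumors. It was below 8.6 on all eGFP arrays and above 9 on 3, 3 and 2 arrays of the vector groups. Ckm averaged 9.06 ± 0.65 in p19Arf+IFNbeta, 9.03 ± 0.90 in IFNbeta and 8.70 ± 0.59 in p19Arf, against 8.14 ± 0.24 in eGFP (SD, n = 5 each). Its differences were 0.92 (SE 0.35) in p19Arf+IFNbeta, 0.89 (SE 0.35) in IFNbeta and 0.56 (SE 0.35) in p19Arf (limma adjusted p = 0.234, 0.9998 and 0.664). Glycogen phosphorylase Pygm and the AMP deaminase Ampd1, both of fibres under load, had differences in p19Arf+IFNbeta of 0.66 and 0.58. In IFNbeta they were 0.82 and 0.49, and in p19Arf 0.42 and 0.23.

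Myoglobin (Mb), the oxygen store of oxidative fibres, ran from 7.38 to 8.02 in p19Arf+IFNbeta, 7.33 to 7.92 in IFNbeta and 7.50 to 7.81 in p19Arf, against 7.22 to 7.78 in eGFP. The 4 groups overlapped, with differences of 0.23, 0.11 and 0.16. The muscle enolase Eno3, a glycolytic enzyme, was the 1 gene of the 44 with a lower mean than eGFP in p19Arf+IFNbeta and in p19Arf. Eno3 was at 10.57, 10.88, 10.07, 10.12 and 10.39 in p19Arf+IFNbeta, 10.66, 10.81, 10.21, 11.23 and 10.80 in IFNbeta and 10.83, 10.36, 10.40, 10.11 and 10.21 in p19Arf tumors, against 10.27, 10.59, 10.71, 10.62 and 10.66 in eGFP tumors. Its eGFP arrays lay close together apart from the first, and the vector arrays lay on both sides of them. Eno3 differed by -0.16, 0.17 and -0.19 in p19Arf+IFNbeta, IFNbeta and p19Arf (limma adjusted p = 0.64, 0.9998 and 0.724). With the spread of each array as a covariate the differences in p19Arf+IFNbeta and p19Arf were 0.10 and 0.05. Pgam2, a second glycolytic enzyme, and the cytochrome oxidase subunits Cox6a2 and Cox8b of muscle differed from eGFP by 0.04 to 0.24.

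**Figure D3:**
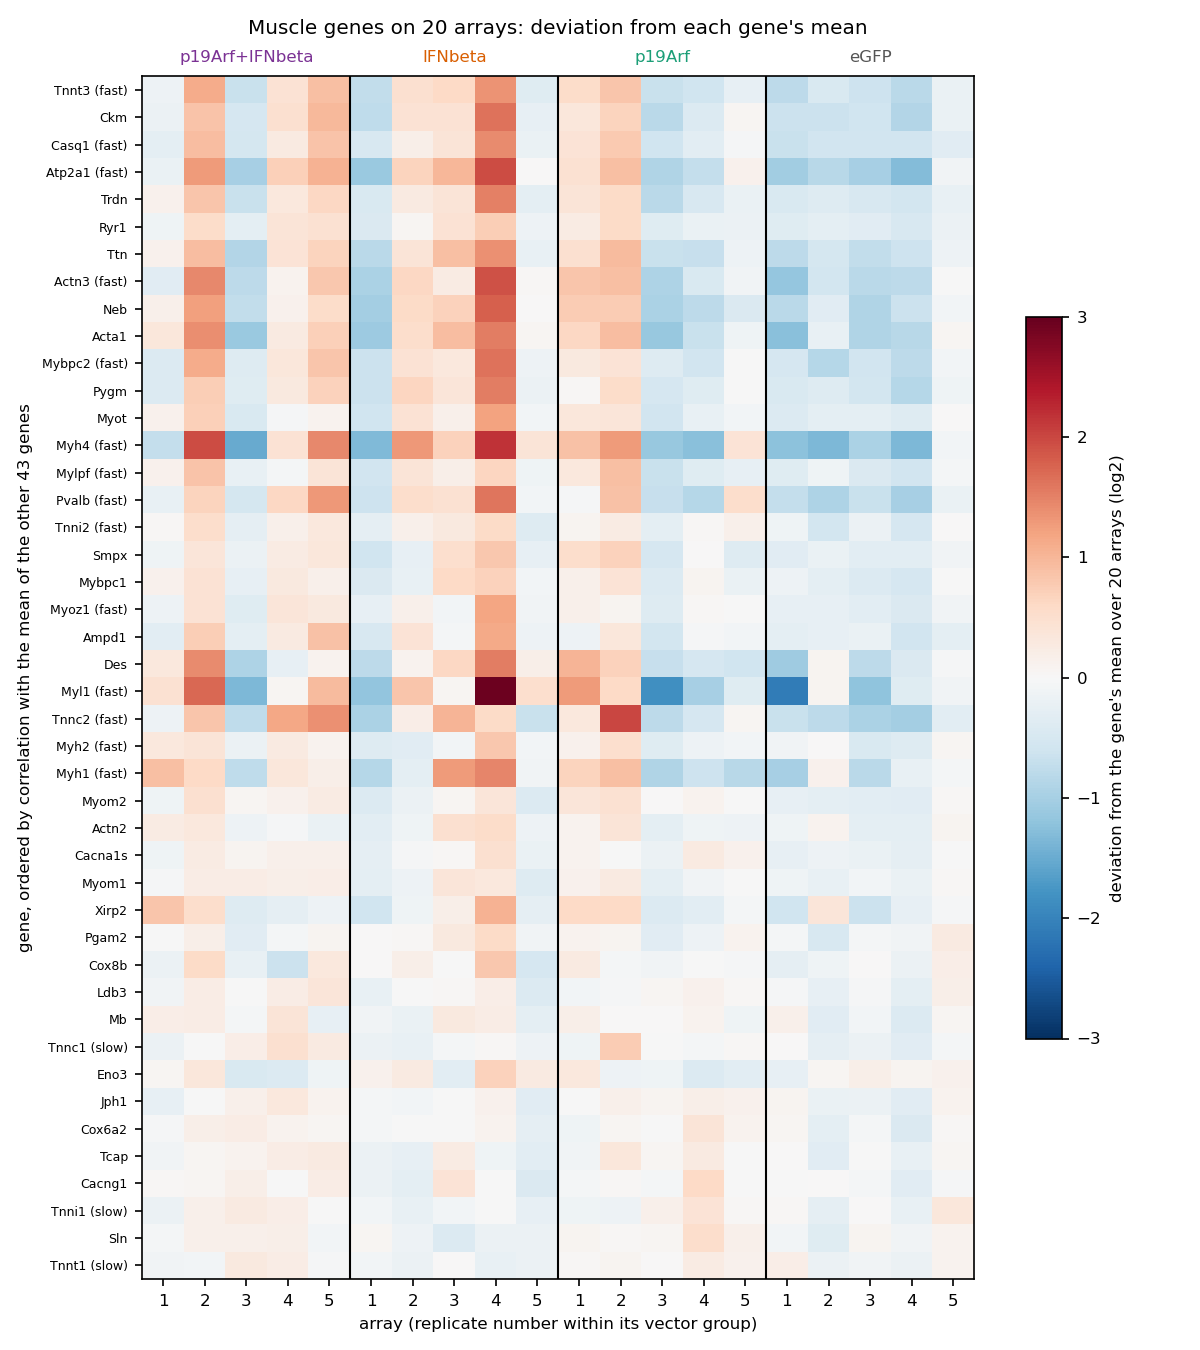
Deviation of each of the 44 genes (rows) from its own mean over 20 arrays, in log2 units (colour, red above and blue below the mean), on the arrays of p19Arf+IFNbeta, IFNbeta, p19Arf and eGFP tumors (columns, replicate numbers). Rows are ordered by correlation with the mean of the other 43 genes, and most rows share the same high arrays, among them the fourth of IFNbeta and the second of p19Arf+IFNbeta.

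Much of the variation lay between arrays of the same group. The fourth IFNbeta array was the highest of 20 for 30 of the 44 genes, and the fourth eGFP array the lowest for 13. These counts have no share over all genes beside them, so whether they are particular to muscle genes is not known. A median of 23.4% of a muscle gene's variance lay between groups (3.86% to 41.3%), where the median over all genes was 22.7%. The SD over 20 arrays was in the top 5% of genes for 23 of 44, where 5% of all genes are by definition. The range reached 1 log2 unit or more for 32 of 44, against 22.2% of all genes. For 30 of 44 the SD of the eGFP arrays was lower than that of each vector group, against 38.4% of all genes.

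The fast fibre isoforms, 14 of the 44, varied over a wider span than the slow troponins. The slow list held only these 3 troponins, so it does not stand for all slow forms. Mybpc1, described above as a slow form, was in neither list. It ranged over 1.19 log2 units and had an r of 0.891 with the mean of the other muscle genes. The median deviation of the 14 from their own means was -0.16, 0.89, -0.61, 0.34 and 0.83 on the p19Arf+IFNbeta arrays and -0.69, 0.41, 0.35, 1.45 and -0.10 on the IFNbeta arrays. It was 0.36, 0.86, -0.68, -0.55 and -0.03 on the p19Arf arrays and -0.70, -0.55, -0.65, -0.68 and -0.10 on the eGFP arrays. Each vector group thus held arrays as low as eGFP beside arrays well above it. The median deviation of the 3 slow troponins ran from -0.27 on the second eGFP array to 0.27 on the third p19Arf+IFNbeta array. The median difference from eGFP was 0.88, 0.82 and 0.53 for the 14 fast isoforms in p19Arf+IFNbeta, IFNbeta and p19Arf, and 0.11, -0.09 and 0.13 for the 3 slow ones. Without the second p19Arf array, the gap between fast and slow in p19Arf was 0.23, against 0.40 with it, and with array weights it was 0.076. None of the 3 slow isoforms had a mean level above the median of all genes. The fast Mylpf, Pvalb and Myl1 also lay below it, with ranges of 1.57, 2.60 and 5.04 log2 units. The fast Tnni2 lay above it, with a range of 1.12. Whether a dimmer signal narrowed the differences of the slow isoforms was not tested.

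**Figure D4:**
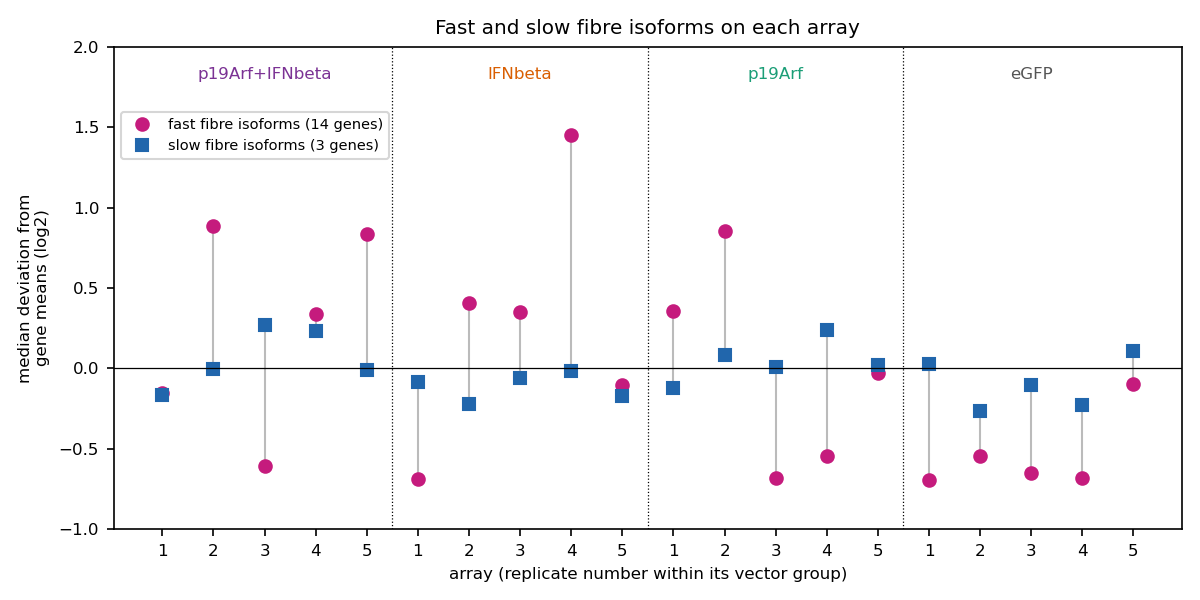
Median deviation from each gene's mean in log2 units (vertical axis) of 14 fast fibre isoforms (circles) and 3 slow fibre isoforms (squares) on each array (horizontal axis: replicate numbers within p19Arf+IFNbeta, IFNbeta, p19Arf and eGFP). The fast median spans -0.70 to 1.45 and the slow median -0.27 to 0.27.

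Correlations over the 20 arrays are given as a description, since the arrays share their normalization and several genes share fibres. The median Pearson r was 0.837 for the 91 pairs of fast isoforms, 0.526 for the 3 pairs of slow ones and -0.034 for the 42 pairs of a fast with a slow isoform, against 0.639 for all 946 pairs of muscle genes. Of the 44, 32 had an r of 0.7 or more with the mean of the others, where 0.301% of all genes had such an r with the mean of the 44. Ckm, Casq1 and Tnnt3 came closest to the others, each with an r of 0.98, and the tightest pair was Ckm with Casq1 at 0.979. The genes that followed the others least were Tnnt1 (-0.17), Sln (-0.14), Tnni1 (-0.05) and Cacng1 (0.19). Sln was closest to Tnni1, with an r of 0.727, and Tnnt1 and Eno3 ran opposite, with the lowest r of all pairs at -0.80.

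Within the fast isoforms, Myh4 and Myh1 were high on partly different arrays, a contrast picked out after their values were seen. Their r was 0.671. On the first p19Arf+IFNbeta array Myh4 deviated from its mean by -0.72 and Myh1 by 0.89, and on the second eGFP array Myh4 deviated by -1.34 and Myh1 by 0.14. The reverse held on the second IFNbeta array, with 1.31 for Myh4 and -0.29 for Myh1, and on the fifth p19Arf array, with 0.40 and -0.82. Parvalbumin followed Myh4 with an r of 0.929 and Myh1 with 0.635. Desmin followed Myh1 with an r of 0.896 and Myh4 with 0.807, and Xirp2 and Actn2 followed Myh1 with 0.867 and 0.892.

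**Figure D5:**
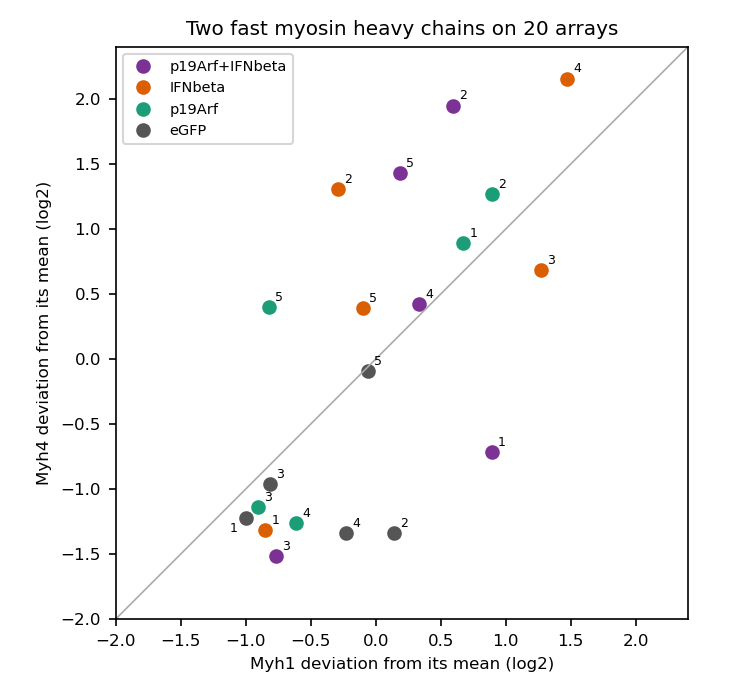
Myh4 deviation from its mean (vertical axis, log2) against Myh1 deviation from its mean (horizontal axis, log2), 1 point per array, coloured by group and numbered by replicate, with the line of equal deviation. The first p19Arf+IFNbeta array lies at -1.61 relative to the line and the second IFNbeta array at 1.60.

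Other muscle genes outside the 44 had smaller differences. Of 56 measured genes of muscle fibres (of 58 listed), 46 averaged above eGFP in p19Arf+IFNbeta, against 55% of all genes. In IFNbeta 35 did, against 44.2% of all genes, and in p19Arf 45 did, against 54.4%. The median differences of the 56 were 0.13, 0.03 and 0.08 in the same order. None of them passed the limma test, where 0% of all genes did. Klhl41, a regulator of sarcomere assembly, had 0.58, 0.52 and 0.39, and Tmod4, which caps thin filaments in skeletal muscle, 0.30, 0.54 and 0.18. Of these 56, 10 had an r of 0.7 or more with the mean of the 44, against 0.301% of all genes. The 10 genes of slow and oxidative fibres among them, such as the slow heavy chain Myh7 and the slow light chain Myl2, had median differences of 0.14, -0.02 and 0.06, and none reached that r.

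The genes outside the 44 with the highest r with their mean over 20 arrays were Pdlim3 (0.913), an actinin partner, and Ankrd23 (0.906), a titin-binding repeat protein. Tmod4 (0.904), Cmya5 (0.889), a desmin partner, Nrap (0.887), an actin anchor, and Klhl41 (0.886) followed. Then came Mustn1 (0.879), Hjv (0.857), an iron-regulating coreceptor made in muscle and liver, Myf6 (0.855), a myogenic factor of mature fibres, and Ppp1r3a (0.852), the glycogen-targeting subunit of a phosphatase. Pdlim3 was 0.51, 0.57 and 0.45 above eGFP in p19Arf+IFNbeta, IFNbeta and p19Arf, with limma adjusted p-values of 0.397, 0.9998 and 0.675.

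Markers of other tissues were read on the same arrays. Of 14 myoblast and regenerating fibre markers measured, 1 (Myf6) had an r of 0.7 or more with the mean of the 44, and the median r was -0.09. None of 8 smooth muscle markers, 9 heart muscle markers, 11 adipocyte markers, 8 endothelial markers, 8 macrophage markers or 5 nerve markers reached that r. Since 0.301% of all genes did, lists this short cannot show a difference from genes at large. The mean level of the myoblast list ran over 7.03 to 7.35 in p19Arf+IFNbeta, 6.93 to 7.14 in IFNbeta and 7.10 to 7.40 in p19Arf, against 7.04 to 7.24 in eGFP. Skin epidermis markers (8 of 10 measured) were at a mean level of 8.92 on the third IFNbeta array and at 6.46 to 7.45 on the other 19. The fast isoforms on that array deviated by a median of 0.35, well inside their range on the other arrays.

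Acta1 was related to 11 measures over the 20 arrays, with p-values from 100000 permutations adjusted over the 11. Desmin followed Acta1, with Pearson r of 0.931 (permutation p = 1e-05, the smallest that can be given, adjusted p = 0.00011) and Spearman rho of 0.931 (permutation p = 1e-05, adjusted 0.00011). With group means subtracted r was 0.926, and it was 0.898 once the 2 arrays most distant from the Acta1 median were dropped. The embryonic heavy chain Myh3 had an r of 0.508 (permutation p = 0.0227, adjusted 0.125) and rho of 0.478 (permutation p = 0.0352, adjusted 0.194), and r was 0.263 without those 2 arrays. The smooth muscle actin Acta2 had r of 0.456 and myoglobin 0.367 (adjusted permutation p = 0.165 and 0.308). For Tnni1, Adipoq of adipocytes, Krt10 of epidermis, Cdh5 of endothelium, Adgre1 of macrophages, Mki67 of dividing cells and the spread of the array, r was between -0.202 and 0.219 (adjusted permutation p = 0.690 to 0.900).

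The vector groups were also compared with each other. In p19Arf+IFNbeta 24 of 44 muscle genes had a higher mean than in IFNbeta, against 57.1% of all genes, and the median difference was 0.05. Tnnc2 had the largest at 0.46 and Eno3 the lowest at -0.34. Relative to p19Arf, 37 of 44 were higher in p19Arf+IFNbeta, against 46.9% of all genes, with a median of 0.15, the largest at Myl1 with 0.63 and the lowest at Sln with -0.10. In neither comparison did a muscle gene pass the limma test at an adjusted p under 0.05, where 0% of all genes did, and the smallest adjusted p among the 44 was 0.186 and 0.998. At an unadjusted p under 0.05, 1 of 44 was higher than in IFNbeta, against 11.8% of all genes, and 0 than in p19Arf, against 1.83%. None was lower, against 14% and 1.24%.

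The interaction asks whether the p19Arf effect differed with IFNbeta present, as p19Arf+IFNbeta minus IFNbeta, less p19Arf minus eGFP. Its median over the 44 was -0.24, where that over all genes was 0.01. Myh4 had -1.35 (SE 0.89), the lowest of all 19938 genes, with a limma adjusted p of 1. The next lowest of the 44 were Atp2a1 at -0.97 and Actn3 at -0.83, and the highest was Tnni1 at 0.13. None of the 44 passed, 0% of all genes did, and none of the 44 had an unadjusted p under 0.05, where 0.813% of all genes had one with a positive and 0.492% with a negative value.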

How the data were processed

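Total RNA of 20 tumor samples was extracted with Trizol, labelled with biotin and read on Affymetrix arrays, per the labels. The deposited table held log2 expression values of 35556 probe sets as summarised and normalized by the authors. The submitters' processing notes name Affymetrix Expression Console and GCOS. That the logarithm has base 2 was inferred from the range of the values, and the settings of summarisation and scaling are not stated in the labels. Probe sets with 1 gene symbol numbered 21789, those with several 1621, and 12146 had none in the annotation used. Each of 19938 genes was read from its probe set with the highest mean. Of the 44 muscle genes only Trdn and Jph1 had more than 1 probe set.

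Groups and replicate numbers came from the sample titles. All 20 arrays entered 1 linear model with 4 group means in limma 3.58.1 (R 4.3.3), with 16 residual and 6.06 prior degrees of freedom. Tests were 2-sided, with Benjamini-Hochberg adjustment over 19938 genes and a threshold of 0.05. The model was tested on simulated data. Exact permutation tests and correlations used scipy 1.17.1. The number of arrays limits the precision.

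The muscle genes and all lists were chosen with earlier results of these data known. The genes described array by array were Acta1, Ckm, Myh4, Mylpf, the 6 troponins, Atp2a1, Pvalb, Mb, Des and Sln. To these were added, per comparison with eGFP, the muscle genes with the largest and smallest difference, the 2 with the widest and the 2 with the narrowest range, and the 10 other genes most correlated with the mean of the 44, predicted genes left out. Promoter sequences were RefSeq's for GRCm38.p6, and motifs were searched on both strands. Alternatives were quantile normalization, median centring, array weights, trended and robust moderation, the spread of an array as a covariate, a filter on dim genes, the mean of all probe sets of a gene, the replicate number as a block, and each array left out in turn.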

Additional observations from a re-analysis of the deposited data

Results flagged for a closer look

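In 188 groups of 5 arrays (44 muscle genes and 3 list medians in 4 groups), the highest or lowest array was checked for a gap to the nearest of the others above 0.71 of the group's range. Chance gives such a gap in about 1 of 20 groups, and 15 were found. In IFNbeta tumors the fourth array stood alone, with the heavy chain Myh2 at 7.58 against 6.38 to 6.70 on the other 4 arrays and the Z-disc gene Myoz1 at 8.47 against 7.05 to 7.45. In p19Arf tumors the fourth array was high for sarcolipin (Sln), at 6.88 against 6.39 to 6.50, and for the channel subunit Cacng1, at 7.77 against 7.11 to 7.20. The second p19Arf array was high for the slow troponin C gene Tnnc1, at 8.27 against 7.39 to 7.54, and the first for Cox8b, at 7.40 against 7.03 to 7.13. The third p19Arf array was low for Myoz1, at 6.90 against 7.29 to 7.45. The first p19Arf+IFNbeta array was low for the M-band gene Myom1, at 6.84 against 7.05 to 7.10.

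In eGFP tumors the fifth array was higher than the other 4 for Casq1, at 6.52 against 6.19 to 6.28, for Myot, at 6.87 against 6.45 to 6.56, and for Myom2, at 6.78 against 6.42 to 6.50. On that array the median deviation of the 14 fast fibre isoforms was -0.0971, against -0.696 to -0.548 on the others. The first eGFP array was low for Eno3, at 10.3 against 10.6 to 10.7. The fourth eGFP array was low for Ampd1, at 6.44 against 6.72 to 6.81, and for Cacng1, at 6.82 against 7.10 to 7.18.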

How the results depend on the processing

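No muscle gene passed the limma test under any of the 28 alternatives, and the smallest adjusted p was 0.0534 for Tcap in p19Arf+IFNbeta against IFNbeta without IFNbeta replicate 3. Genes of all kinds passed under some. With array weights 166 passed in p19Arf+IFNbeta against eGFP, 5 in IFNbeta against eGFP, 1730 in p19Arf+IFNbeta against IFNbeta and 2573 in the F test. In p19Arf+IFNbeta against IFNbeta 1 passed with median centring and 1 with dim genes left out, and leaving out 1 array gave 0 to 2351, the highest without IFNbeta replicate 3. In p19Arf+IFNbeta against eGFP leaving out 1 array gave 0 to 84, the highest without eGFP replicate 1. The causes were not tested.

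Leaving out genes under the median level kept 14 muscle genes and no slow isoform. Of these 13 in p19Arf+IFNbeta, 14 in IFNbeta and 13 in p19Arf had a higher mean than eGFP. The kept genes had median differences of 0.86 in p19Arf+IFNbeta and in IFNbeta and 0.55 in p19Arf. These counts and medians cover fewer genes, and why the medians were larger than over all muscle genes was not tested. Leaving out 1 array gave median differences of 0.33 to 0.52 in p19Arf+IFNbeta, 0.23 to 0.54 in IFNbeta and 0.21 to 0.42 in p19Arf, and counts of 42 to 43, 35 to 41 and 41 to 43. For these counts too no share of all genes is given. The gap between fast and slow isoforms was 0.52 to 1.03, 0.63 to 1.16 and 0.23 to 0.58. Without p19Arf+IFNbeta replicate 3 the troponin values of p19Arf+IFNbeta were 1.25 (C), 1.12 (T) and 0.47 (I), past the exact permutation test at an adjusted p of 0.0357. Their ranges over arrays left out were 0.73 to 1.25, 0.58 to 1.12 and 0.25 to 0.47, and in p19Arf 0.40 to 0.90, 0.20 to 0.60 and 0.13 to 0.35.

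Of the 18 genes followed under the alternatives, 7 in p19Arf+IFNbeta, 11 in IFNbeta and all 18 in p19Arf had a difference from eGFP that turned or moved by over 1.5 times under 1 or more of them. With array weights alone 2, 2 and 13 did. In p19Arf these weights gave Myh4 0.39, Atp2a1 0.37, Ckm 0.14, Pvalb 0.34, Tnnc2 0.44, Tnnt3 0.18, Tnni2 0.10 and Acta1 0.013. They gave a median of 0.10 over the 44 genes and a fast minus slow gap of 0.076. Without p19Arf replicate 2, Pvalb was 0.44, Tnnc2 0.52 and Tnnt3 0.33 in p19Arf, and without IFNbeta replicate 4, Ckm was 0.55 and Tnni2 0.23 in IFNbeta.

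Some directions turned. With the array spread as a covariate Eno3 was 0.10 in p19Arf+IFNbeta and 0.054 in p19Arf, Tnnt1 -0.028 in p19Arf+IFNbeta and Tnni1 -0.014 in p19Arf. With array weights Myl1 was -0.27 and Mylpf -0.050 in p19Arf. Jph1 in IFNbeta was -0.020 without IFNbeta replicate 4 and -0.026 without eGFP replicate 4, and Tnni1 in p19Arf was -0.0051 without p19Arf replicate 4 and 0.18 without eGFP replicate 5. With quantile normalization the r of Acta1 with Cdh5 was -0.057 and with the array spread -0.084. The cause was not tested for any of these.

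The sample titles number the arrays but do not state a pairing. Deviations of same-numbered arrays correlated at -0.624 to 0.657 over 30 pairs, 11 of them above 0.1. Arrays of unlike number were not compared, so these values cannot decide whether the numbers pair the arrays. With the replicate block 0 muscle genes and 0 genes passed in each comparison. The number of arrays and the dim signal of most muscle genes limit what can be shown.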
